A study of Mus musculus with 32 samples.

Results

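The genes described here are 9 cytokines of effector and helper T cells: Ifng, Tnf, Lta, Csf2, Il2, Il21, Il4, Il13 and Il10. They were taken by symbol, and each of the 9 was found once among the 16741 genes of the deposited RNA table. Their levels were followed in 31 libraries of donor T cells, in 10 groups of cell type and arm, from a mouse model of graft-versus-host disease (GVHD), in which C57Bl6 donor T cells meet Balb/c tissues with mismatched major histocompatibility molecules. Cells came from spleen and lymph nodes, as CD4 cells, as CD8 cells and as regulatory T cells (Treg). The day 0 groups are C57Bl6 cells taken before transfer, with 2 libraries each of CD4, CD8 and Treg cells. The syngeneic groups are untreated control recipients, with 3 CD4 and 3 CD8 libraries. The allogeneic groups are untreated recipients with GVHD, with 4 CD4 and 4 CD8 libraries. The Treg-treated groups are recipients with GVHD that were also given Treg on day 0, with 4 CD4, 4 CD8 and 3 Treg libraries. Sample titles put the cells after transplantation at day 6, while the series' own design text says 8 days. The labels give no strain for the syngeneic recipients, no age, conditioning, cell dose or sort gate, and do not say whether a library came from 1 animal or a pool, so p-values measure the spread between these libraries. Titles carry a prefix, JL019 or JL027, whose meaning is not stated.

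Cytokines are secreted proteins through which T cells instruct other cells. Interferon gamma, tumour necrosis factor (TNF), lymphotoxin alpha and GM-CSF are effector cytokines that activate phagocytes, stromal cells and antigen-presenting cells, and are known as drivers of tissue damage in GVHD. Interleukin 2 (IL-2) and IL-21 are made mainly by activated CD4 helper cells and sustain T and B cells, with Treg known to consume IL-2 while making little of it. IL-4 and IL-13 are the type 2 cytokines, and IL-10 restrains inflammation and is made by Treg and by strongly stimulated effector cells.

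The values are counts estimated and normalised by the authors, called normalised counts below, and depth is unknown. No length-scaled values were used, so levels are compared within a gene and not between genes. Some libraries and groups stood apart from their labels. CD4 syngeneic replicate JL019-2 had 1659 for Cd4 and 1956 for Cd8a, and a sum over 14 myeloid markers of 3.74e+06 against 94207 and 84771 in the other 2 CD4 syngeneic libraries. CD4 Treg-treated replicate JL027-1 had 17587 for Cd4, within the range of the CD4 allogeneic libraries (16706 to 21480.5), against 8722 to 9370 in the other 3 of its group. Foxp3, the defining transcription factor of Treg, was 198 and 442 in the libraries labelled Treg at day 0 against 1145 and 978 in those labelled CD4 (-1.84 on the log2 scale, limma adjusted p 0.309), which goes against the label, while Il2ra and Ikzf2, other Treg genes, were higher in the Treg libraries (means of 12146 against 1952, and 16735 against 1695). After transplantation Foxp3 was 265 to 293 in the libraries labelled Treg. It was 127 to 178 in CD4 and 109 to 236 in CD8 cells of Treg-treated recipients. In allogeneic recipients it was 337 to 579 in CD4 and 103 to 453 in CD8 cells. In the CD8 libraries Cd4 lay between 8.76 and 92.8.

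Several of the genes lie close together on the mouse genome (GRCm38, RefSeq annotation). Il4 (chr11:53612460-53618665) and Il13 (chr11:53631323-53634702) are neighbours with 12.7 kb between them, and Csf2 (chr11:54247270-54249899) lies 613 kb farther along with 8 protein-coding genes between it and Il13. Il2 (chr3:37120713-37125954) and Il21 (chr3:37222759-37232636) are neighbours 96.8 kb apart, and Tnf (chr17:35199367-35202007) and Lta (chr17:35203165-35205578) are 1.16 kb apart. Ifng is at chr10:118441046-118445894 and Il10 at chr1:131019845-131024970. All 9 are short genes, with annotated spans of 2414 to 9878 bases against a median of 20020 bases over the 15855 genes with a span.

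Promoter windows of the 4 members that rose in CD4 cells of Treg-treated recipients are printed because these members moved together in that comparison. Each runs 5′ to 3′ from 250 bases before to 50 after an annotated transcript start (RefSeq, GRCm38.p6), which for Lta lies inside the gene span given above and for the other 3 at its outer end, and capitals mark exact matches on either strand to the core motifs GGAAA for NFAT, to TGANTCA for AP-1, to AGATAA for GATA factors and to TATAAA for the TATA box. Capitals also mark the STAT motif (TTC and GAA separated by any 3 bases) and the kappaB motif (GGGA and CC separated by any 4 bases), which can overlap a match for NFAT.
Il2, chr3:37125905-37126204, minus strand: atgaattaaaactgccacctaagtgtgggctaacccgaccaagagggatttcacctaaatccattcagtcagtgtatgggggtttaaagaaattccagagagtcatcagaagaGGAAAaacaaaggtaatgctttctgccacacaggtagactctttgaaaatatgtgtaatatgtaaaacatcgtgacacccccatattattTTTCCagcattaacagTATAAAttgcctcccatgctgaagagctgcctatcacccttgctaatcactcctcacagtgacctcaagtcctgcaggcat
Il4, chr11:53618616-53618915, minus strand: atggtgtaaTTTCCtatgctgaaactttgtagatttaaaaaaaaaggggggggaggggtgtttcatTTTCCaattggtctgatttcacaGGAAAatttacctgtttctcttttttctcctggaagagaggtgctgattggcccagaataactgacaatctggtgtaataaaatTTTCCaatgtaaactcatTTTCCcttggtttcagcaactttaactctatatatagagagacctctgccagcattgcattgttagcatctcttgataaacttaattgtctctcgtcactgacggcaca
Csf2, chr11:54249850-54250149, minus strand: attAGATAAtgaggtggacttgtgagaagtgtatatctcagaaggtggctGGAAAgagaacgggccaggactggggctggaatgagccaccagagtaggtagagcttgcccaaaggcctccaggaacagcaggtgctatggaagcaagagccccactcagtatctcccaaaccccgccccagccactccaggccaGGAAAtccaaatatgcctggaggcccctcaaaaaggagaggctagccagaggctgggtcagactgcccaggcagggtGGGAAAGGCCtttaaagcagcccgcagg
Lta, chr17:35205302-35205601, minus strand: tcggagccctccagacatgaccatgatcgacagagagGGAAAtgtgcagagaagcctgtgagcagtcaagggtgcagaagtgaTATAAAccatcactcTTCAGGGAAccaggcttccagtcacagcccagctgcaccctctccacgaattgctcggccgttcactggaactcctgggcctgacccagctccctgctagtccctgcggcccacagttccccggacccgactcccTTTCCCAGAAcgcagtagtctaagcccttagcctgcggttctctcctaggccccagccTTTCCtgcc
Windows were matched for 8 of the 9 genes, 9 windows with both annotated starts of Il4, and none for Il10. The NFAT core was present in 9 of these 9 windows and in 61.3% of all 32851 promoter windows of this length. The AP-1 core was in 0 of the 9 windows and in 7.81% of all, and the kappaB motif was in 2 (Csf2 and Tnf) and in 20.7% of all. The STAT motif was in 3 windows (Ifng, Lta and the inner start of Il4) against 8.30% of all, the GATA motif in 2 (Csf2 and Il13) against 11.2%, and the TATA box in 5 (Ifng, Il13, Il2, Lta and Tnf) against 13.6%. The TATA match of Lta began at -167 bases from the start, and those of Ifng, Il13, Il2 and Tnf at -31 to -29. The kappaB matches of Csf2 and Tnf began after the start, at 22 and 29 bases. These matches are a description of the letters in the windows.

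**Figure D1:**
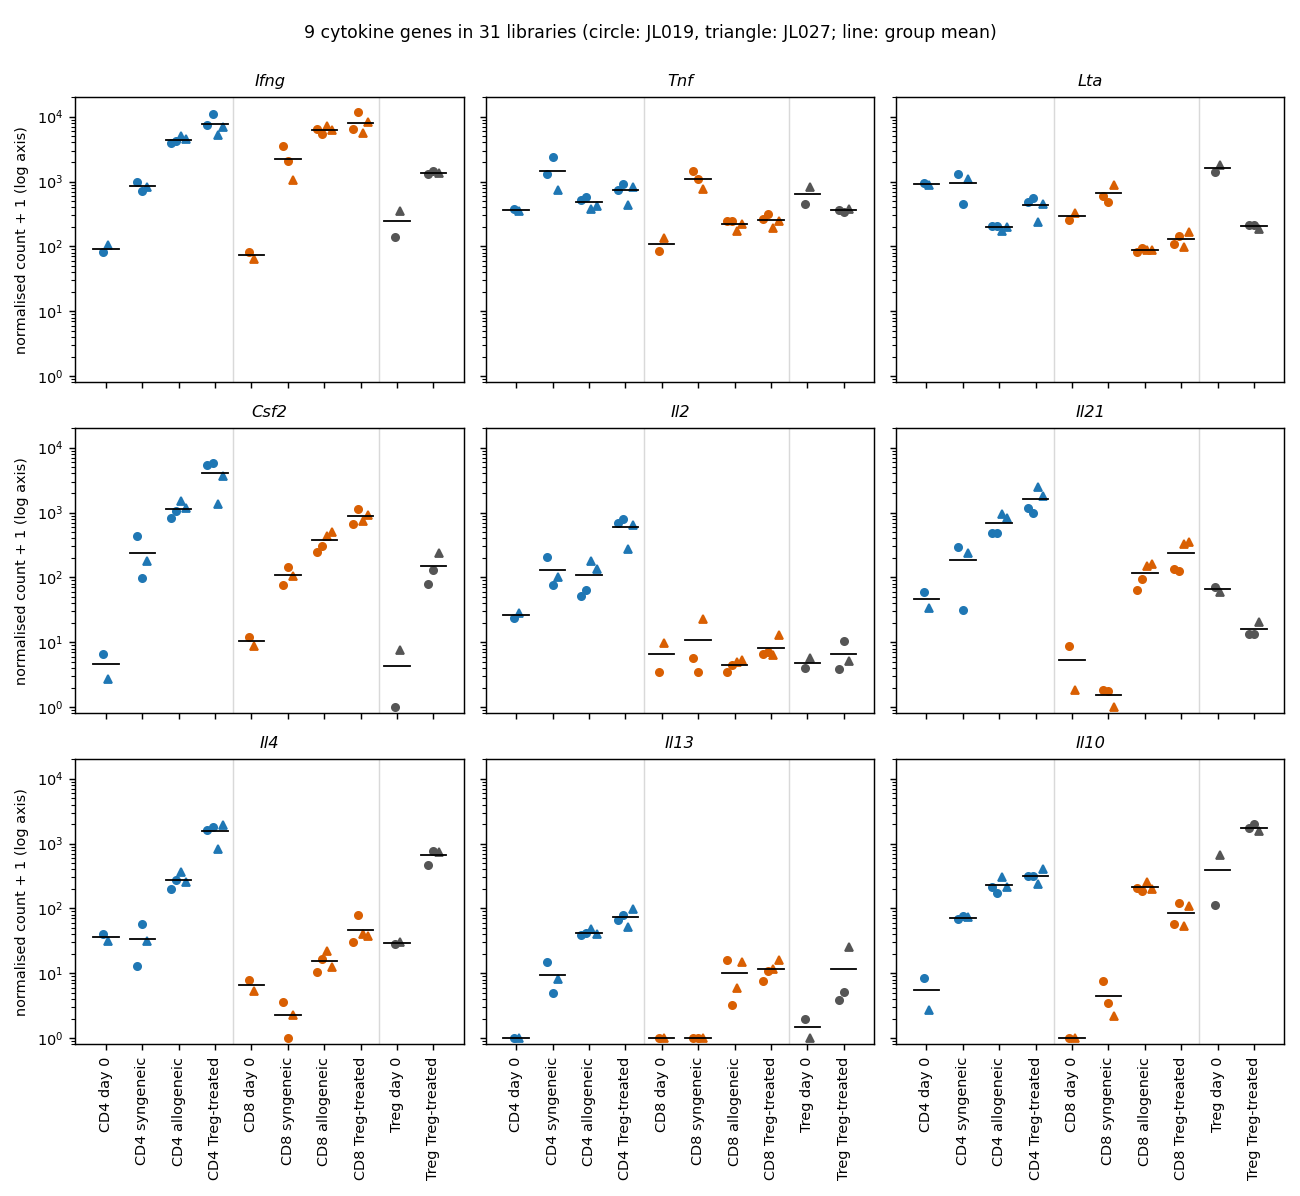
Normalised counts plus 1 on a log axis for each gene, 1 point per library (circles JL019, triangles JL027, blue CD4, orange CD8, grey Treg), with a line at the group mean. Csf2, Il2, Il21, Il4 and Il13 have their highest group mean in CD4 cells of Treg-treated recipients, and Il10 in Treg of these recipients. Lta has it in Treg at day 0 and Ifng in CD8 cells of Treg-treated recipients. Tnf has it in CD4 syngeneic cells, where replicate JL019-2, a library that stands apart from its label, is highest (2379).

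Several of these cytokines were low before transplantation. Il13 was listed at 0 in both CD4 and both CD8 libraries of day 0, and Il10 in both CD8 libraries. Csf2 was 5.64 and 1.68 in CD4, 10.98 and 7.86 in CD8, and 0 and 6.53 in Treg libraries. Ifng was 80.1 and 103 in CD4, 81.6 and 62.6 in CD8, and 141 and 351 in Treg libraries. Tnf was 371 and 349 in CD4, 83.2 and 134 in CD8, and 452 and 822 in Treg libraries, and Il10 was 111 and 669 in Treg libraries. Lta, whose product joins lymphotoxin beta or acts as a soluble trimer, was 941 and 885 in CD4, 251 and 331 in CD8, and 1420.4 and 1793 in Treg libraries at day 0, and the Treg level at day 0 was its highest group. Over all 31 libraries the value was under 5, here called near 0, in 14 libraries for Il13, 11 for Il2, 5 for Il10, 4 each for Il21 and Il4, 2 for Csf2 and 0 for Ifng, Tnf and Lta.

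Transfer into syngeneic recipients raised 6 of 9 members in CD4 cells (Ifng, Tnf, Il2, Csf2, Il13 and Il10), against 9.90% of all genes called higher by limma at an adjusted p under 0.05. In CD8 cells 5 rose (Ifng, Tnf, Csf2, Il10 and Lta), against 13.0% of genes, and 1 fell (Il4), against 11.3%. All 9 are short genes, and of 2981 genes with spans in their range 15.2% were called higher in CD4 cells. In CD8 cells 23.0% of these genes of like span were higher and 5.47% lower. Ifng rose by 3.18 on the log2 scale in CD4 cells (SE 0.38, limma adjusted p 6.14e-07) and by 4.77 in CD8 cells (SE 0.38, adjusted p 3.02e-09). Tnf rose by 1.87 in CD4 cells and by 3.32 in CD8 cells (adjusted p 0.00109 and 9.71e-07). Myeloid cells also make TNF: 12 of 14 myeloid markers were called higher and 0 lower in CD4 cells, with sums of 3383 and 4425 at day 0 and 84771 to 3.74e+06 in syngeneic libraries, and 5 of 9 erythroid markers were higher too. In CD8 cells 3 of the myeloid markers were higher and 0 lower, with sums of 8721 and 9886 against 43172 to 68058. There 9 of 11 B cell markers were lower and 1 higher (sums of 20389 and 31930 against 3557 to 4234). Of 9 erythroid markers 4 were lower and 0 higher. Of 10 NK and innate lymphoid markers 5 were lower and 1 higher. Their sum was nonetheless higher, at 7439 to 8691 against 2791 and 3312 at day 0, so it does not follow most of the called markers. Without CD4 syngeneic replicate JL019-2, the highest myeloid sum, Tnf was still called in CD4 cells, at 1.44 (adjusted p 0.0104). Syngeneic JL019-1 and JL027 still had myeloid sums of 94207 and 84771, so leaving JL019-2 out does not test the myeloid part. The part of these markers in the changes of Tnf, Lta and the other members was not tested. These comparisons rest on 2 libraries at day 0. The Il2 call in CD4 cells (2.19, adjusted p 0.0323) was lost without either day 0 library or without syngeneic replicate JL019-1, at adjusted p 0.204, 0.143 and 0.10004. In CD8 cells the Il4, Il10 and Lta calls were lost without day 0 replicate JL019 (adjusted p 0.253, 0.107 and 0.247). Il4 was also lost without syngeneic JL019-2 (0.109) or JL027 (0.0548), Il10 without syngeneic JL019-1 (0.0790) and Lta without syngeneic JL027 (0.122), and Lta was not called once each library's trend with gene span was removed (0.88, adjusted p 0.0618). Il21 in CD8 cells was called lower without day 0 replicate JL027 (-2.56, adjusted p 0.0318). With replicate JL019-2 left out of the CD4 syngeneic group, Il21 was also called, at 2.57 (adjusted p 0.00645).

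In the allogeneic host 6 of 9 members were higher than in the syngeneic host in CD4 cells, and the same 6 in CD8 cells: Ifng, Il21, Csf2, Il4, Il13 and Il10. Tnf and Lta were lower in both cell types, and Il2 was called in neither. Among all 16741 genes, limma called 6.69% higher and 7.91% lower in CD4 cells, and 10.4% higher and 10.7% lower in CD8 cells. Of the 2981 genes of like span it called 7.48% and 9.53% in CD4, and 9.09% and 16.0% in CD8 cells. The median log2 change of the 9 members was 2.30 in CD4 and 1.76 in CD8 cells, where the median over all genes was 0.00 and 0.02. The libraries of both hosts did not overlap for any of these 8 members in either cell type, where 23.2% of all genes did not overlap in CD4 and 30.3% in CD8 cells.

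Ifng, the cytokine that activates macrophages and raises antigen presentation, was 970.0, 713 and 837 in the CD4 syngeneic and 3919, 4203, 5069.5 and 4537 in the CD4 allogeneic libraries. Every allogeneic library was above every syngeneic library, by 2.40 on the log2 scale (limma: SE 0.32, adjusted p 4.69e-06). In CD8 cells it was 3581, 2067 and 1042 in syngeneic and 6530.5, 5417, 7143 and 6275 in allogeneic libraries, a change of 1.67 (SE 0.32, adjusted p 0.000289). The CD8 syngeneic libraries spread widely, and none reached the allogeneic range. Csf2, which encodes GM-CSF, was 441, 98.3 and 181 in CD4 syngeneic and 824, 1045, 1529 and 1176 in CD4 allogeneic libraries (2.48, SE 0.57, limma adjusted p 0.00270). The CD8 values of Csf2 were 76.2, 144 and 105 in syngeneic and 247, 307, 433 and 496 in allogeneic libraries, without overlap. That CD8 change (1.76, SE 0.57, adjusted p 0.0262) missed the threshold when any 1 of 4 libraries was left out: allogeneic JL027-1 (adjusted p 0.0565), allogeneic JL027-2 (0.0726), syngeneic JL019-1 (0.115) or syngeneic JL027 (0.0758). NK cells also make interferon gamma and GM-CSF: of 10 NK and innate lymphoid markers 3 were called higher and 1 lower in CD4, and 5 higher and 3 lower in CD8 cells. Their sums were 960 to 3018 in syngeneic and 3753 to 4481 in allogeneic CD4 libraries, and 7439 to 8691 against 14561 to 22506 in CD8 libraries. In CD8 cells Klrb1b went from 1.87 ± 1.69 (SD, n = 3) to 839 ± 241 (SD, n = 4), with an adjusted p of 6.18e-11, and Il1rl1, which encodes the IL-33 receptor, from 37.5 ± 20.7 to 1438 ± 208 (adjusted p 2.71e-11). Klrk1 had the largest part of the CD8 allogeneic sum, at 1880 ± 667 against 12917 ± 3693. Ncr1, the NK receptor NKp46, was 14.5 ± 6.94 against 5.06 ± 3.11 in CD8 and 165 ± 263 against 5.90 ± 3.11 in CD4 cells, and Klra8 was at 0 in all 4 CD8 allogeneic libraries. The part of this list in the Ifng and Csf2 rises was not tested.

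Tnf and Lta, the neighbouring genes of TNF and lymphotoxin alpha, moved the other way. Tnf was 1286, 2379 and 741 in CD4 syngeneic and 515, 584, 376 and 425 in CD4 allogeneic libraries, and fell by 1.49 on the log2 scale (limma: SE 0.32, adjusted p 0.00153). The highest of these values was that of CD4 syngeneic replicate JL019-2, the library with the largest sum of myeloid markers, and without it the change was -1.06 (adjusted p 0.0277). In this comparison 12 of 14 myeloid markers were called lower and 0 higher. Their sums were 84771 to 3.74e+06 in the syngeneic and 9212 to 16359 in the allogeneic libraries. Without JL019-2, 9 were still lower and 0 higher, so leaving it out does not test the myeloid part of the Tnf result. Of 9 erythroid markers 5 were lower and 0 higher. Of 8 T-cell lineage markers 2, Cd8a and Cd8b1, were lower and 0 higher. The part of these lists was not tested. In CD8 cells Tnf was 1455, 1104 and 756 in syngeneic against 243, 243, 172 and 223 in allogeneic libraries (-2.29, SE 0.32, adjusted p 4.40e-06), and the myeloid sums were 43172 to 68058 against 12361 to 18238, with 2 of 14 markers higher and 5 lower. Lta was 1283, 444 and 1112 in CD4 syngeneic and 206, 207, 169 and 196 in CD4 allogeneic libraries (-2.14, SE 0.30, adjusted p 1.12e-05). The CD8 values were 595, 486 and 887 against 80.3, 92.8, 88.4 and 88.3 (-2.85, SE 0.30, adjusted p 4.58e-08). The B cell sums were 3557 to 4234 against 1208 to 1358 in CD8 libraries, with 0 of 11 markers higher and 1 lower, and 567 to 9398 against 1094 to 1535 in CD4 libraries, with 2 higher and 2 lower, and their part in the Lta result was not tested. The CD8 allogeneic libraries lay within a narrow range for Lta, and theirs was the lowest group mean of all 10, at 87.4 ± 5.22 (SD, n = 4).

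Of the neighbours Il2 and Il21, limma called Il21 in CD4 cells. Il2, the growth factor of activated T cells, was 207, 76.5 and 101 in CD4 syngeneic and 50.3, 63.1, 181 and 134 in CD4 allogeneic libraries. The groups overlapped (-0.32, SE 0.57, limma adjusted p 0.792). In the CD8 allogeneic libraries Il2 was near 0, at 2.49, 3.44, 3.93 and 4.29. Il21, which supports germinal-centre B cells and effector CD8 cells, was 294, 30.8 and 236 in CD4 syngeneic and 477, 489, 964 and 834 in CD4 allogeneic libraries, a rise of 2.34 (SE 0.60, adjusted p 0.00743). The low syngeneic value was that of replicate JL019-2, and without it the change was 1.32 (adjusted p 0.133). In CD8 syngeneic libraries Il21 was 0.854, 0.746 and 0, and in CD8 allogeneic libraries 63.9, 95.1, 147 and 159, a rise of 6.22 (SE 0.60, adjusted p 8.92e-09). The rise of Il21 was larger in CD8 than in CD4 cells by 3.89 on the log2 scale (limma: SE 0.85, adjusted p 0.00583). Members called higher in that test of the difference, Il21 and Il10, stood against 2.69% of all genes. With a pseudocount of 10 the Il21 difference was 1.31 (adjusted p 0.365), and with JL019 libraries alone 3.14 (adjusted p 0.413).

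Among the type 2 genes, Il4 was 11.8, 56.7 and 30.8 in CD4 syngeneic and 201, 275, 369 and 256 in CD4 allogeneic libraries (3.23, SE 0.46, limma adjusted p 1.17e-05). In CD8 cells it was 2.59, 0 and 1.26 against 9.42, 15.9, 20.9 and 11.6 (2.88, SE 0.46, adjusted p 2.79e-05). The CD8 allogeneic mean of Il4 was 5.25% of the CD4 allogeneic mean. Il13 was 14.2, 3.97 and 7.08 in CD4 syngeneic and 37.4, 40.8, 46.6 and 38.9 in CD4 allogeneic libraries (2.30, SE 0.59, adjusted p 0.00702), and 1.92 with an adjusted p of 0.0612 without syngeneic replicate JL019-2. In CD8 cells Il13 was listed at 0 in all 3 syngeneic libraries and at 14.96, 2.30, 4.92 and 13.7 in the allogeneic libraries, and limma called it higher (adjusted p 0.000339). Both genes of the pair were therefore above their syngeneic libraries in every allogeneic library of both cell types.

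Il10 was 67.4, 74.1 and 71.7 in CD4 syngeneic and 215, 174, 301 and 215 in CD4 allogeneic libraries, a rise of 1.63 (SE 0.47, limma adjusted p 0.0166), with an adjusted p of 0.0509 without allogeneic replicate JL027-1. In CD8 cells it was 6.68, 2.52 and 1.17 in syngeneic and 209, 187, 252 and 197 in allogeneic libraries, a rise of 5.76 (SE 0.47, adjusted p 3.55e-10). The rise was larger in CD8 cells by 4.13 (SE 0.66, adjusted p 0.000248), by 2.53 with a pseudocount of 10 (adjusted p 0.00327), and was not called with JL019 libraries alone (3.82, adjusted p 0.0565). The CD8 allogeneic libraries of Il10 overlapped those of CD4 cells (-0.08, SE 0.43, adjusted p 0.953), whereas CD8 syngeneic cells were far below CD4 syngeneic cells (-4.21, SE 0.50, adjusted p 8.27e-07). Foxp3 was 0 in 2 CD8 syngeneic libraries, 3.52 in the other, and 103 to 453 in the CD8 allogeneic libraries. Within that allogeneic group JL027-1 had the highest Il10 (252) and the lowest Foxp3 (103). Replicate JL019-2 had the lowest Il10 (187) and the highest Foxp3 (453). The part of Foxp3 in the Il10 result was not tested.

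**Figure D2:**
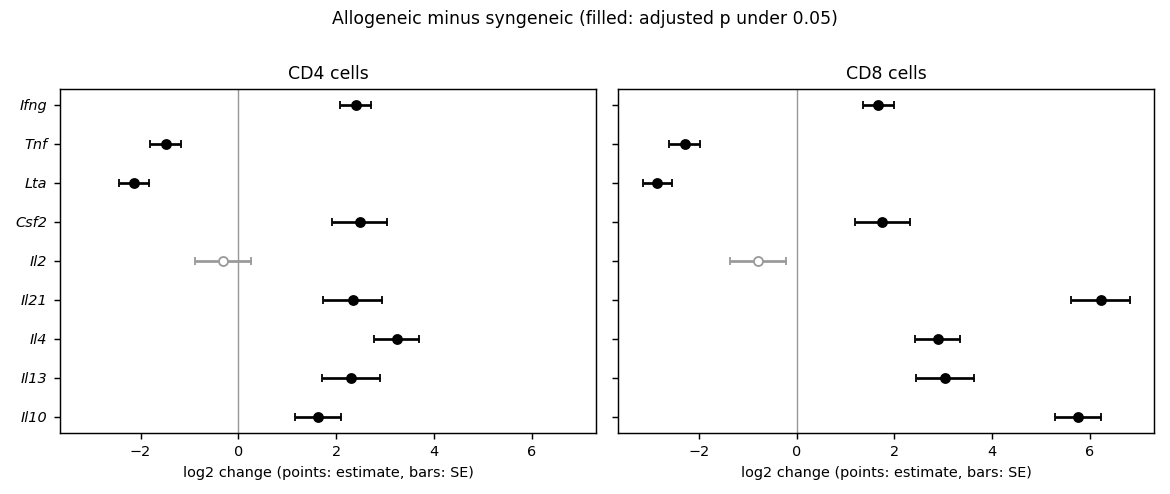
Log2 change from syngeneic to allogeneic recipients for each gene in CD4 and CD8 cells (points: limma estimate, bars: SE, filled where the adjusted p was under 0.05). In both panels 6 genes lie to the right, Tnf and Lta lie to the left, and Il2 is open.

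With JL019 libraries alone limma called 3 members in CD4 and 4 in CD8 cells in the allogeneic to syngeneic comparison, and with JL027 libraries alone 4 in CD4 and 7 in CD8 cells, where each syngeneic group holds 2 and 1 libraries.

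Against day 0, allogeneic CD4 cells were higher for 7 members (all but Tnf and Lta; 14.4% of all genes) and lower for 1, Lta (9.61%). Allogeneic CD8 cells were higher for 6 (Ifng, Tnf, Il21, Csf2, Il13 and Il10, against 16.3% of genes) and lower for Lta (14.2%). Of the 2981 genes of like span 19.6% were higher and 7.88% lower in CD4, and 22.4% and 10.9% in CD8 cells. Csf2 rose by 8.05 on the log2 scale in CD4 cells (SE 0.64, limma adjusted p 1.60e-10) and Ifng by 6.44 in CD8 cells (SE 0.36, adjusted p 2.71e-13). Lta fell by 2.23 in CD4 cells (SE 0.34, adjusted p 1.42e-05) and by 1.71 in CD8 cells (SE 0.34, adjusted p 0.000352). B cells also make lymphotoxin alpha: of 11 B cell markers 5 were called lower and 1 higher in CD4, and 6 lower and 0 higher in CD8 cells. Their sums were 7660 and 9579 at day 0 against 1094 to 1535 in allogeneic CD4 libraries, and 20389 and 31930 against 1208 to 1358 in CD8 libraries. In CD8 cells 4 of 9 erythroid markers were lower too and 0 higher. The NK and innate lymphoid sums were 1200 and 1218 against 3753 to 4481 in CD4 libraries (4 of 10 markers higher, 1 lower), and 2791 and 3312 against 14561 to 22506 in CD8 libraries (3 higher, 4 lower). Of 14 myeloid markers 6 were higher and 0 lower in CD4, and 4 higher and 4 lower in CD8 cells, and the part of these lists in the members' changes was not tested. The Il2 call in CD4 cells (1.87, adjusted p 0.0349) was lost without day 0 replicate JL019 (0.209), day 0 replicate JL027 (0.132), allogeneic replicate JL027-1 (0.106) or allogeneic replicate JL027-2 (0.0851). The Tnf call in CD8 cells (1.04, adjusted p 0.0307) was lost without day 0 replicate JL019 (0.364) or without allogeneic JL019-1 (0.0601), JL019-2 (0.0602) or JL027-2 (0.0523).

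In CD4 cells of recipients given Treg, 4 of 9 members were higher than in untreated allogeneic recipients: Il2, Il4, Csf2 and Lta. The same comparison called 10.7% of all genes higher and 11.5% lower, and 0 members lower. The 9 estimates were all above 0, with a median of 1.09 against 0.00 over all genes. An unadjusted p under 0.05 was found for 6 members, where 22.2% of all genes were called after adjustment. The share of all genes under that unadjusted threshold is not given here. Ratios of group means were 5.58 for Il4, 5.53 for Il2, 3.53 for Csf2 and 2.22 for Lta. These groups share the allogeneic libraries with the comparison above, so the changes are given here only on their own.

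Il4 was 201, 275, 369 and 256 in the allogeneic and 1622, 1787, 826 and 1907 in the Treg-treated CD4 libraries, a rise of 2.44 on the log2 scale (limma: SE 0.42, adjusted p 0.00241). Every treated library was above every untreated one, and the lowest was replicate JL027-1. Il13, its neighbour, was 37.4, 40.8, 46.6 and 38.9 against 64.6, 78.9, 50.3 and 98.6, also without overlap, but the estimate of 0.78 (SE 0.54) had an adjusted p of 0.310. Il2 was 50.3, 63.1, 181 and 134 against 678, 794, 269 and 632 (2.54, SE 0.53, adjusted p 0.00734). The treated libraries again lay above all untreated ones, with JL027-1 nearest to them. Il21, its neighbour, was 477, 489, 964 and 834 against 1195, 987, 2517 and 1812 (1.21, SE 0.56, adjusted p 0.113), with JL027-1 here the highest treated library. In each arm both JL027 libraries (964 and 834, then 2517 and 1812) lay above both JL019 libraries. Il21 thus separated the arms without overlap but did not pass the threshold.

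Csf2 was 824, 1045, 1529 and 1176 in the allogeneic and 5329.8, 5832, 1356 and 3646 in the Treg-treated CD4 libraries (1.66, SE 0.52, limma adjusted p 0.0269). Replicate JL027-1 fell inside the allogeneic range, so the groups overlapped. The call was lost without any 1 of allogeneic JL019-1 (adjusted p 0.0781), JL019-2 (0.0657) or JL027-2 (0.0513), or Treg-treated JL019-1 (0.0924), JL019-2 (0.104) or JL027-2 (0.0683). Lta was 206, 207, 169 and 196 against 489, 552, 239 and 451 (1.09, SE 0.28, adjusted p 0.0142), and its call was lost without Treg-treated JL019-1 (0.0543), JL019-2 (0.0604) or JL027-2 (0.0501). Even so, the treated Lta level stayed below that of syngeneic CD4 cells by 1.05 (SE 0.30, adjusted p 0.0165), with overlapping libraries. Without syngeneic replicate JL019-1 or JL027 that adjusted p was 0.141 or 0.0992.

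Ifng was 3919, 4203, 5069.5 and 4537 against 7395, 11048, 5285 and 6888 in the treated libraries, without overlap (0.74, SE 0.30, limma adjusted p 0.0693). Tnf was 515, 584, 376 and 425 against 727, 928, 436 and 826 (0.58, SE 0.30, adjusted p 0.151). Without Treg-treated replicate JL027-1 both were called, Ifng at 0.90 (adjusted p 0.0265) and Tnf at 0.81 (adjusted p 0.0379), and 6 members in all. Il10 was 215, 174, 301 and 215 against 312, 319, 236 and 405 and overlapped (0.49, SE 0.43, adjusted p 0.441).

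**Figure D3:**
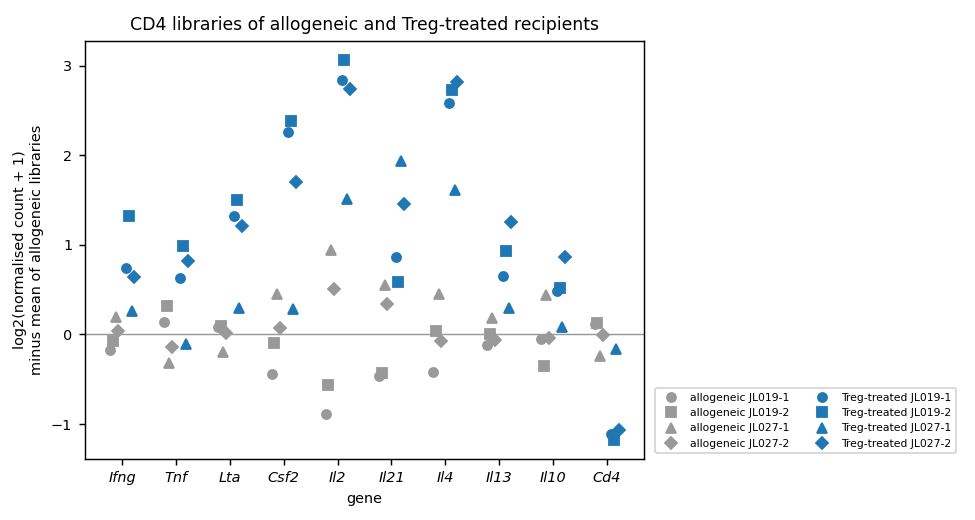
Each CD4 library of allogeneic (grey) and Treg-treated (blue) recipients as log2(normalised count + 1) minus the mean of the allogeneic libraries, for the 9 cytokines and Cd4. Treg-treated replicate JL027-1 (blue triangle) is the treated library nearest to the allogeneic mean for Ifng, Tnf, Lta, Csf2, Il2, Il4, Il13, Il10 and Cd4, and the farthest from it for Il21.

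Several other measures moved with these libraries. Cd4 was 8722 to 9370 in the 3 treated libraries with the highest Csf2, Il2 and Lta and 17587 in JL027-1. Of 14 myeloid markers 3 were called higher and 1 lower (Ly6g, a neutrophil surface protein, at 2.39, and Itgam at -1.79), with sums of 28580 to 99784 in treated and 9212 to 16359 in untreated libraries and no marker at 0 throughout either group. Mast cells and basophils also make IL-4 and IL-13: of 8 of their markers 0 were called, their sums were 1546 to 4902 against 807 to 1484, Mcpt8 was 115 to 738 against 43.3 to 134, and their part in the Il4 result was not tested. Of 8 T-cell lineage markers 2 were higher and 0 lower, Cd3d at 0.83 (adjusted p 0.0388) and Cd3g at 1.00 (adjusted p 0.0200). With the span trend removed Cd3d was not called (0.66, adjusted p 0.0625) and Cd3g was (0.94, adjusted p 0.0226). The erythroid sums were 6109 and 5531 against 490 and 471 in JL019 libraries, and 50304 and 62647 against 8590 and 10836 in JL027. Of 9 erythroid markers 0 were called, and their part in the members' changes was not tested. The NK and innate lymphoid sums were 1969 to 3069 against 3753 to 4481 with 1 of 10 higher. In bulk libraries, fewer cells of a type and less RNA per cell cannot be told apart. Of the 4 treated libraries 3 were shifted towards short genes, all but JL027-1, with a change per doubling of annotated span of -0.0986, -0.121, 0.0161 and -0.0688 on the log2 scale, against 0.0194 to 0.0451 in the untreated libraries. Among the 2981 genes with spans in the range of the 9 cytokines, 19.9% were called higher and 4.80% lower, with a median change of 0.26. With each library's span trend removed, Il2 (2.37, adjusted p 0.00809), Il4 (2.30, adjusted p 0.00226) and Lta (0.81, adjusted p 0.0328) were still called and Csf2 was not (1.39, adjusted p 0.0513). Within JL019 alone and within JL027 alone, with 2 libraries per arm, limma called 0 members, although all 4 changes kept their sign: Il4 was 2.85 and 2.03, and Il2 3.68 and 1.40. The adjusted p-values were 0.0821 and 0.614 for Il4.

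In CD8 cells the same comparison called 0 of 9 members by limma, against 0.0657% of all genes, while 3 members had an unadjusted p under 0.05. The share of all genes under that unadjusted threshold is not given here. The estimates of 8 members were above 0, and the exception was Il10. It was 209, 187, 252 and 197 in allogeneic and 56.8, 120.4, 51.7 and 107 in Treg-treated libraries, without overlap, with a ratio of means of 0.398 (-1.41, SE 0.43, unadjusted p 0.00306, limma adjusted p 0.230). Il4 was 9.42, 15.9, 20.9 and 11.6 against 29.7, 77.4, 38.6 and 36.0, also apart (1.55, SE 0.42, adjusted p 0.159), while the mast cell and basophil sums were 419 to 642 against 664 to 1333. Csf2 was 247, 307, 433 and 496 against 656, 1146, 752 and 927, apart as well (1.25, SE 0.52, adjusted p 0.397). In all, 5 members did not overlap between the arms, against 4.89% of all genes. The others were Lta and Il2, which stayed between 2.49 and 12.0. Of the 2981 genes of like span 0.0671% were called higher and 0.0335% lower, with a median change of 0.15. Their share without overlap is not given. The change per doubling of span was -0.00715, -0.124, 0.0149 and -0.0559 in treated and -0.0179 to 0.0135 in untreated libraries. Ifng was 6530.5, 5417, 7143 and 6275 against 6541, 11806, 5649 and 8285 and overlapped. The difference between the CD8 and CD4 changes was called for 0 members, against 0.00597% of genes. Its 2 unadjusted p-values under 0.05 were for Il10 (-1.90, SE 0.61, p 0.00448) and Il2 (-1.73, SE 0.75, p 0.0282), both with a limma adjusted p of 0.898, so the 4 calls in CD4 cells are not shown to differ from CD8 cells.

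**Figure D4:**
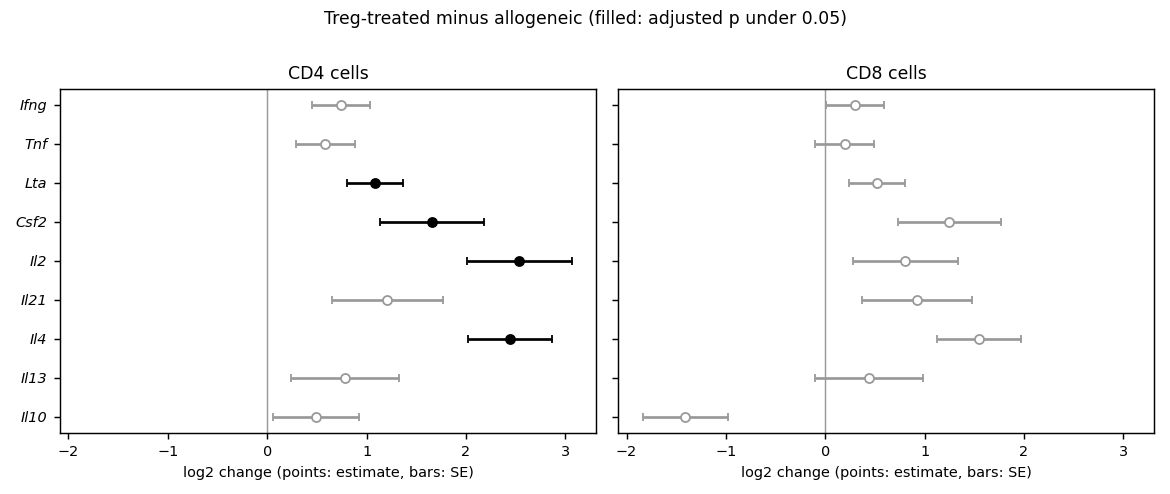
Log2 change from allogeneic to Treg-treated recipients for each gene in CD4 and CD8 cells (points: limma estimate, bars: SE, filled where the adjusted p was under 0.05). Il2, Il4, Csf2 and Lta are filled in CD4 cells, no gene is filled in CD8 cells, and Il10 in CD8 cells is the 1 estimate to the left of 0.

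Compared with syngeneic recipients, CD4 cells of Treg-treated recipients had 7 members higher, all but Tnf and Lta (8.23% of all genes), and 1, Lta, lower (8.43%). In CD8 cells Ifng, Il21, Csf2, Il4, Il13 and Il10 were higher (9.56%) and Tnf and Lta lower (8.63%). Of the 2981 genes of like span 13.8% were higher and 7.41% lower in CD4, and 9.90% and 10.2% in CD8 cells. Il4 was the farthest above in CD4 cells, by 5.67 on the log2 scale (limma: SE 0.46, adjusted p 9.53e-10), and Il21 in CD8 cells, by 7.14 (SE 0.60, adjusted p 7.50e-10). Tnf in CD4 cells was lower by 0.90 with an adjusted p of 0.0515, and was called without Treg-treated replicate JL019-2 (0.0486) or syngeneic replicate JL027 (0.00672), and with the span trend removed (-1.11, adjusted p 0.00881). Without syngeneic replicate JL019-2, the library with the highest myeloid sum, the Tnf change was -0.47 (adjusted p 0.275). Of 14 myeloid markers 10 were lower and 0 higher in this comparison. Their sums were 28580 to 99784 in treated and 84771 to 3.74e+06 in syngeneic libraries. Syngeneic JL019-1 and JL027 had 94207 and 84771, so leaving out JL019-2 does not test the myeloid part of the Tnf value. The erythroid sums were 5531 to 62647 against 4921 to 469408, and the T-cell lineage sums 104116 to 176272 against 38884 to 96492. The part of these lists was not tested. Of 10 NK and innate lymphoid markers 3 were higher and 3 lower in CD4, and 5 higher and 4 lower in CD8 cells, and their part was not tested. Il10 was higher in both cell types, by 2.12 in CD4 (adjusted p 0.00212) and 4.36 in CD8 cells (adjusted p 6.09e-08).

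The libraries labelled Treg from Treg-treated recipients had 5 members higher than Treg at day 0, against 8.43% of all genes: Ifng, Csf2, Il4, Il13 and Il10. Lta was the 1 member that was lower, against 4.89%. Of the 2981 genes of like span 11.6% were higher and 3.86% lower. Il10 was 111 and 669 at day 0 and 1716, 2021 and 1558 after transplantation (2.68, SE 0.56, limma adjusted p 0.00122). The day 0 libraries lay far apart, and without the lower one, JL019, the change was 1.39 with an adjusted p of 0.197. Il4 was 27.0 and 29.6 against 465, 764 and 751, a rise of 4.46 (SE 0.55, adjusted p 1.15e-06). The sums of the 8 mast cell and basophil markers were 195 and 233 against 1513 to 1780.0 in these libraries, and their part in the Il4 result was not tested. Csf2 was 0 and 6.53 against 76.99, 129.6 and 240.4, and was called (adjusted p 8.60e-07). Il13 was 0.992 and 0 against 2.93, 4.22 and 24.8 (2.52, SE 0.70, adjusted p 0.0151), and was not called without Treg-treated JL027 (0.128) or day 0 JL027 (0.186). Of 9 erythroid markers 5 were higher and 0 lower, with sums of 132 and 460 against 1713 to 50561, the highest in Treg-treated JL027. The NK and innate lymphoid sums were 1206 and 1371 against 4915 to 7582, with 2 of 10 markers higher and 4 lower, and the part of both lists in the Ifng, Csf2 and Il13 results was not tested. Lta was 1420.4 and 1793 against 210.4, 214 and 187, and fell by 2.97 (SE 0.36, adjusted p 1.02e-06). Il21 was 71.1 and 59.5 against 12.3, 12.6 and 19.8, apart but not called (-2.09, SE 0.72, adjusted p 0.0534). Il2 was low, at 2.97 and 4.65 against 2.93, 9.47 and 4.13.

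Set beside CD4 cells of Treg-treated recipients, the libraries labelled Treg were higher for Il10 (13.9% of all genes were called higher) and lower for 7 members (16.1% lower): Ifng, Tnf, Il2, Il21, Csf2, Il13 and Lta. Il10 averaged 1765 ± 235 (SD, n = 3) against 318 ± 69.0 (SD, n = 4) in the CD4 group, a difference of 2.49 (SE 0.47, limma adjusted p 0.000360). Il2 and Il21 were each below 1% of the CD4 mean in Treg, at 0.929% and 0.916%, and Csf2 was at 3.69%. Ifng was at 17.9%, Lta at 47.0% and Tnf at 48.9%. Il4 was at 43.0% of the CD4 mean, without overlap but with an adjusted p of 0.0511, while its neighbour Il13 was at 14.6% (-3.15, SE 0.59, adjusted p 0.000343). In the same comparison 4 of 8 mast cell and basophil markers were called lower and 0 higher, with sums of 1513 to 1780.0 in Treg and 1546 to 4902 in CD4 libraries. Of 14 myeloid markers 7 were lower and 1 higher, with sums of 6716 to 11834 against 28580 to 99784, and the NK and innate lymphoid sums were 4915 to 7582 against 1969 to 3069, with 1 of 10 higher and 3 lower. The part of these lists in the members' differences was not tested. Without CD4 Treg-treated JL027-1, Il4 was called (adjusted p 0.0173). The Tnf difference (-0.98, adjusted p 0.0225) was lost without CD4 JL019-2 (0.0779) or JL027-2 (0.0605), or Treg JL019-1 (0.0626), JL019-2 (0.0678) or JL027 (0.0504). The Lta difference (-1.02, adjusted p 0.0130) was lost without CD4 JL019-2 (0.0509) or Treg JL027 (0.0503). Both were also not called with the span trend removed, at adjusted p 0.0871 and 0.0694, and here 8.55% of the 2981 genes of like span were called higher and 28.6% lower.

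At day 0 the difference between Treg and CD4 cells was called for 1 member, Il10, which was 111 and 669 in Treg and 7.504 and 1.68 in CD4 libraries (5.85, SE 0.61, limma adjusted p 4.51e-07; 2.54% of all genes were called higher). With the recipient as a block, 3 members were called, the others being Ifng and Il2. Cells at day 0 have no recipient, and that block only joins the day 0 libraries of 1 prefix. With the prefix as a block 2 were called, the other being Il2. Ifng was 141 and 351 against 80.1 and 103 (1.28, adjusted p 0.0920), called without Treg JL019 (0.0266). Il2 was 2.97 and 4.65 against 22.5 and 27.7 (-2.45, adjusted p 0.0646).

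In each arm 5 to 8 members were called lower in CD8 than in CD4 cells. At day 0, 5 members were lower (Tnf, Il21, Il4, Il10 and Lta; 1.10% of all genes), and 0 members were called without CD4 replicate JL019 and 2 without CD4 JL027, CD8 JL019 or CD8 JL027. In syngeneic recipients 5 were lower (Il2, Il21, Il4, Il13 and Il10; 6.98%) and Ifng was higher (4.98%), by 1.24 (SE 0.34, limma adjusted p 0.0158). That Ifng call was lost without CD4 replicate JL019-2 (0.0595) or CD8 replicate JL019-1 (0.156), and Lta was called lower without CD4 replicate JL019-2 (-0.91, adjusted p 0.0497). In allogeneic recipients 6 were lower (Tnf, Il2, Il21, Il4, Il13 and Lta; 3.09%), and Csf2 was lower too with the span trend removed (-1.71, adjusted p 0.0376). In Treg-treated recipients 8 were lower, all but Ifng (4.71%). Ifng was 8069.8 ± 2720.4 (SD, n = 4) in CD8 and 7654 ± 2435 (SD, n = 4) in CD4 cells of Treg-treated recipients, and did not differ beyond the spread (0.07, SE 0.30, adjusted p 0.914). Il2 had the widest gap in that arm, with a CD8 mean at 1.22% of the CD4 mean (-6.14, SE 0.53, adjusted p 4.22e-09), followed by Il4 at 2.96% (-5.08, SE 0.42, adjusted p 2.32e-09). Il21 was at 14.3%, Il13 at 14.4%, Csf2 at 21.5% and Il10 at 26.4%. Markers of other cells also differed. At day 0 the B cell sums were 20389 and 31930 in CD8 against 7660 and 9579 in CD4 libraries, and the erythroid sums 32040 and 36283 against 769 and 1501, with 1 of 11 and 2 of 9 markers called higher and 0 lower. In syngeneic recipients 6 of 14 myeloid markers were lower and 0 higher in CD8 cells. Of 10 NK and innate lymphoid markers 5 were higher and 3 lower there, and 4 and 3 were higher and 0 lower in allogeneic and Treg-treated recipients, and the part of these lists in the members' differences was not tested. Within JL019 alone and JL027 alone 1 and 3 members were called in allogeneic, and 4 and 3 in Treg-treated recipients. The Tnf call in allogeneic recipients (-1.10, adjusted p 0.0216) was lost without CD4 JL019-1 (0.0663), CD4 JL019-2 (0.0890) or CD8 JL027-1 (0.0814), and the Csf2 call in Treg-treated recipients (-2.05, adjusted p 0.0109) without CD4 JL019-2 (0.0519).

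**Figure D5:**
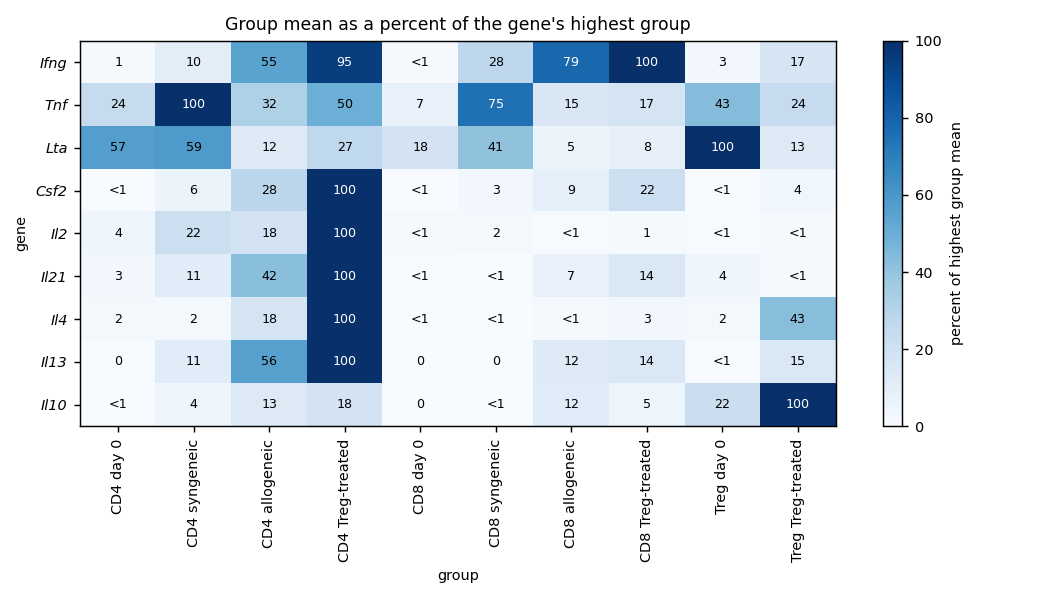
Mean of each group as a percent of the gene's highest group mean (rows: genes, columns: groups, darker for higher). Il2 is at 21.7% or less outside CD4 cells of Treg-treated recipients, Il4 reaches 43.0% in Treg of the same recipients, and Ifng reaches 94.8% in CD4 Treg-treated and 78.6% in CD8 allogeneic cells.

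The order of the 10 groups differed between genes, and neighbours in it often overlapped. For Ifng the CD8 Treg-treated, CD4 Treg-treated and CD8 allogeneic groups overlapped at the top, and both CD4 and CD8 day 0 groups overlapped at the bottom. Il2, Il21, Il4 and Il13 had CD4 Treg-treated cells alone at the top, apart from the next group. For Csf2 that top group overlapped CD4 allogeneic cells through replicate JL027-1. Tnf was highest in the syngeneic groups, at 1469 ± 834 (SD, n = 3) in CD4 and 1105 ± 349 (SD, n = 3) in CD8 cells, which overlapped. That CD4 mean holds replicate JL019-2 at 2379, beside 1286 and 741. Il10 was apart at the top in Treg of Treg-treated recipients, and its next 4 groups overlapped one another in turn.

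Genes whose levels followed each member most closely over the 31 libraries were found by Pearson's r of log2(normalised count + 1) among 13533 candidates, as a description of libraries that share arms and scaling. For Ifng they were Lgals1 (r = 0.96), Gmds and Dera (both 0.95), and for Tnf Gpr84 (0.79), Lgals9 (0.79) and Ier2 (0.75). For Il2 the nearest gene was Il3, the gene of a growth factor of blood precursors (0.88), followed by Tmprss4 (0.86) and Olfr156 (0.82). Il21 was followed by Cd109 (0.91), Csf2 by Cd2bp2 and Ifitm1 (0.92 each), and Il4 by Ebi3 (0.90), Cd200r1 (0.90) and Il6 (0.89). Il13 had Ccl1, Cd70 and Hrh4 (0.93 each), Il10 had Niban1, Casp1 and Klrg1 (0.93 each), and Lta had Sardh (0.91), Cryl1 (0.89) and Il6ra (0.89).

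Other genes of the cytokine system were read from 6 lists, beside 10.7% of all genes called higher and 11.5% lower in CD4 cells of Treg-treated against allogeneic recipients. Of 17 other T-cell cytokines, 7 were called higher and 0 lower, with a median change of 0.83. Il3 rose from 183 ± 136 to 1225 ± 583 (SD, n = 4 each; 2.87, SE 0.72, limma adjusted p 0.0135), and Areg, which encodes the repair factor amphiregulin, from 9.05 ± 3.88 to 89.1 ± 51.1 (3.02, SE 0.52, adjusted p 0.00241). Of 10 regulators of cytokine mRNA decay, 0 were higher and 4 lower (median -0.66), led by Zfp36l2 (-2.14, adjusted p 0.00331) and Khsrp (-1.86, adjusted p 0.0234), which bind AU-rich elements of cytokine messages. Of 28 transcription factors of cytokine loci, 2 were higher and 6 lower (median -0.70). Prdm1, which encodes Blimp-1, fell by 1.37 (SE 0.25, adjusted p 0.00348) and Nfatc1, an NFAT factor, by 1.98 (SE 0.46, adjusted p 0.0107). Of 17 receptor genes of the 9 cytokines 2 were higher and 4 lower (median -0.41): Ifngr2 rose by 2.33 and Ifngr1 fell by 0.71, the chains of the interferon gamma receptor (adjusted p 0.000681 and 0.0131). Of 20 interferon gamma targets 4 were higher and 0 lower (median 0.22), among them Iigp1 (1.45, adjusted p 0.0164) and Socs1 (1.10, adjusted p 0.0123). Of 12 IL-2 and STAT5 targets 3 were higher and 1 lower (median 0.19), with Ccnd2 at 1.29 (adjusted p 0.00614) and Tnfrsf18 at 1.06 (adjusted p 0.0141). Without Treg-treated replicate JL027-1 the transcription factors were 1 higher and 10 lower and the interferon gamma targets 5 higher and 3 lower. Of the treated libraries 3 were shifted towards short genes, as given above, and with each library's span trend removed 6 other cytokines were higher and 0 lower, 3 decay regulators lower and 0 higher, 2 transcription factors higher and 6 lower, and 3 interferon gamma targets higher and 0 lower. In CD8 cells 0 genes of these 6 lists were called in that comparison by limma.

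In the comparison of allogeneic with syngeneic hosts the receptors were called in both directions, with 4 of 17 higher and 7 lower in CD4 and 3 higher and 8 lower in CD8 cells (medians -0.67 and -0.87). Beside the counts here stand 6.69% of all genes higher and 7.91% lower in CD4, and 10.4% and 10.7% in CD8 cells. Ifngr1 rose by 2.46 while Ifngr2 fell by 4.85 in CD4 cells (limma adjusted p 3.33e-10 for each), and in CD8 cells Il2ra, the high-affinity chain for IL-2, rose by 4.53 (adjusted p 1.76e-10) and Il10rb fell by 1.76 (adjusted p 4.10e-09). Of the 28 transcription factors 9 were higher and 2 lower in CD4 cells, and 8 and 3 in CD8 cells (medians 0.87 and 0.51). Prdm1 rose in both, by 2.91 in CD4 (adjusted p 1.43e-08) and 4.48 in CD8 cells (adjusted p 1.78e-12), as did Maf in CD4 (2.53, adjusted p 7.76e-08) and Bhlhe40 in CD8 cells (3.78, adjusted p 7.90e-09). Among 17 other T-cell cytokines 3 were higher and 2 lower in CD4, led by Fasl (2.64, adjusted p 2.36e-07) and Osm (-1.65, adjusted p 0.00141), and 3 and 5 in CD8 cells, led by Tnfsf8 (-2.49, adjusted p 5.11e-07) and Ltb (-1.86, adjusted p 4.06e-05), with medians of 0.23 and 0.37. Of 20 interferon gamma targets 2 were higher and 3 lower in CD4 cells (median 0.06; Gbp3 at 1.17 and Gbp7 at 1.03, adjusted p 0.00332 and 0.00936). In CD8 cells 1 target was higher and 8 lower (median -0.81), with Socs1 at -2.35 (adjusted p 6.79e-07) and Tgtp1 at -2.34 (adjusted p 2.79e-06). Of 12 IL-2 and STAT5 targets 5 were higher and 4 lower in CD4 and 4 and 4 in CD8 cells (medians 0.04 and 0.10), with Tnfrsf4 at 2.87 and 6.60 (adjusted p 1.19e-06 and 1.45e-13) and Il2rb at 2.54 in CD4 cells (adjusted p 3.23e-05). Of the 10 decay regulators 1 was higher and 0 lower in CD4, and 1 and 1 in CD8 cells (medians 0.33 and 0.42), with Zfp36l2 at 1.92 and 1.40 (adjusted p 0.00183 and 0.0165) and Zfp36l1 at -1.59 in CD8 cells (adjusted p 0.000366). The CD4 syngeneic group holds replicate JL019-2, and 12 of 14 myeloid markers were lower in the CD4 comparison. Without that library the counts higher and lower in CD4 cells were 3 and 5 for receptors, 8 and 2 for transcription factors, 3 and 2 for other cytokines, 1 and 3 for interferon gamma targets, 4 and 5 for IL-2 and STAT5 targets and 1 and 0 for decay regulators. The transcription factor median was then 0.41, and the medians of the last 4 lists were below 0 (-0.36, -0.08, -0.39 and -0.15). Osm was -0.92 (adjusted p 0.0199) and Ifngr2 -4.42 (adjusted p 5.67e-09) without it, while Gbp7 was not called (0.68, adjusted p 0.130).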

How the data were processed

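Bulk RNA libraries were made with SMARTer v4 and Nextera XT chemistry, per the labels' protocols. The deposited table holds a signal per gene and library: estimated counts scaled between libraries by the authors with DESeq2 after kallisto, with FastQC 0.11.7 and GRCm38, per the submitters' processing notes and the file headers. The values are not whole, so depth and counting intervals are unknown and no count test was run, although the plan allowed for one. TCR tables were not used here.

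Of 31 libraries in 10 groups, taken from the sample titles, log2(value + 1) was fitted with limma 3.58.1 in R 4.3.3 (group means, trend and robust options), with 19 contrasts and Benjamini-Hochberg adjustment over 16741 genes at 0.05. Log2 changes understate changes of low genes. A mean of at least 1 was required, which removed 0 genes. The model was tested on simulated data. Members and lists were chosen with earlier results of these data known. Named genes were the members, the 3 most correlated genes of each (some are not reported here), and up to 2 called genes with the lowest p per list in 4 contrasts. Marker genes and, for the Treg label, Il2ra and Ikzf2 were named after their values were seen. Gene spans (RefSeq, GRCm38.p6) matched 94.7% of genes. Python 3.11.15, numpy 2.4.6, pandas 2.3.3 and matplotlib 3.10.9 were used. Alternatives were the pseudocount (0.1, 10), filters, quantile and median scaling, blocks, smaller models, single prefixes and single libraries left out. Libraries of one recipient, taken as one prefix, arm and number in the titles, had a median correlation of deviations of 0.135 over 21 pairs.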

Additional observations from a re-analysis of the deposited data

Results flagged for a closer look

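Among 36 gene and group combinations of 4 libraries, 1 library lay far from the others of its group: Il2 was 12.0 in CD8 Treg-treated replicate JL027-2, against 5.27 to 6.04 in the other 3. Chance gives about 1 in 20 groups such a library.

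The change from syngeneic to allogeneic hosts differed between CD8 and CD4 cells for Il21, by 3.89 on the log2 scale (limma: SE 0.85, adjusted p 0.00583), and for Il10, by 4.13 (limma: SE 0.66, adjusted p 0.000248). In both genes every allogeneic library was above every syngeneic library in both cell types, and the CD8 syngeneic libraries were the low ones, at 0.854, 0.746 and 0 for Il21 and at 6.68, 2.52 and 1.17 for Il10. With a pseudocount of 10 the Il21 difference was 1.31 (adjusted p 0.365), and with JL019 libraries alone 3.14 (adjusted p 0.413). The Il10 difference was 2.53 (adjusted p 0.00327) with a pseudocount of 10, and was not called with JL019 libraries alone (3.82, adjusted p 0.0565).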

How the results depend on the processing

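Of member changes that were called, 0 reversed under the alternatives, while Il2 in allogeneic minus syngeneic CD4 cells, not called, was -1.15 with JL019 alone and 0.62 with JL027 alone. With JL019 libraries alone, limma called 3 members for allogeneic minus syngeneic in CD4 and 4 in CD8 cells, 0 for Treg-treated minus allogeneic in CD4 cells, 5 and 4 for allogeneic minus day 0 in CD4 and CD8 cells, 2 for syngeneic minus day 0 in CD8 cells, 0 for Treg minus CD4 at day 0, 0, 1 and 4 for CD8 minus CD4 at day 0, in allogeneic and in Treg-treated recipients, and 0 for the difference of the allogeneic changes. With JL027 alone the counts were 4 for allogeneic minus syngeneic, 0 for Treg-treated minus allogeneic and 4 for Treg-treated minus syngeneic in CD4 cells, 3 for syngeneic minus day 0 in CD8 cells, 4 for Treg minus CD4 in Treg-treated recipients, and 1, 3, 3 and 3 for CD8 minus CD4 at day 0, in syngeneic, allogeneic and Treg-treated recipients. Both settings have fewer libraries. With the compared groups alone in the model the counts were 2 for syngeneic minus day 0 in CD4 cells, 2 for Treg minus CD4 at day 0, and 3 and 2 for CD8 minus CD4 at day 0 and in syngeneic recipients. A pseudocount of 10 gave 2 for CD8 minus CD4 at day 0, and quantile normalisation gave 2 for Treg minus CD4 at day 0. The cause was not tested. With the prefix as a block, Treg minus CD4 at day 0 had 2 calls, and with the recipient as a block 3. For day 0 the recipient block only joins the day 0 libraries of 1 prefix. The replicate label as a block gave 3 for syngeneic minus day 0 in CD8 cells. These blocks moved no other count of members by more than 1.5 times. The replicate label did not pair arms: same-labelled libraries of 2 arms had a median correlation of deviations of 0.003 over 19 pairs.

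Leaving out 1 library in turn gave 2 to 6 members for Treg-treated minus allogeneic in CD4 cells, 3 to 7 for syngeneic minus day 0 in CD8 cells, 1 to 2 for Treg minus CD4 at day 0 and 0 to 2 for CD8 minus CD4 at day 0. Centring each library on its median moved the median change of all genes in Treg-treated minus allogeneic CD4 cells from 0.00 to 0.20, and kept the 9 member estimates above 0, with 5 called. The lists without single libraries and the removal of the span trend were added after these patterns were known, and the latter kept each count of members within 1.5 times. The planned count model was not run, since the values are not whole counts. Depth is unknown, so low values, such as Il2 in CD8 allogeneic and Treg cells or Il13 at day 0, cannot be given a detection limit.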
